A study of Homo sapiens with 4 samples.

Results

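The interleukin-6 family and the interleukin-1 family of cytokines were followed in MRC5, a long-used fibroblast line from human fetal lung, after transfection of microRNAs. The set comprised 10 genes chosen by symbol: the ligands IL6, IL11, LIF and CLCF1, their shared receptor chain IL6ST, the interleukin-1 family ligands IL1A, IL1B and IL33, the receptor IL1R1, and the adhesion molecule VCAM1. All 10 were found among the 26255 genes of each library, and 7 of them reached a mean of 1 FPKM over the libraries, as did 11860 genes in all. FPKM, the unit of every level below, counts fragments relative to transcript length and library size, so levels of different genes can be set side by side. There were 4 RNA libraries, 2 labelled miRs and 2 labelled as having no treatment (control), with a time of 48 h in the titles and a wild-type genotype in every label. Every title also holds "nor", and those of the controls hold "P". The titles do not say what either stands for. Which microRNAs were used is not in the labels. The series title sets them against a negative-control microRNA, whereas the treatment label of the controls says none, so what the controls received cannot be told from the labels. Nothing says whether replicates came from separate cultures, and the p-values therefore rest on a spread between libraries that may be technical.

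Cytokines of the interleukin-6 family signal through a receptor complex that contains gp130, the product of IL6ST. Each ligand adds its own receptor chain, and the complex activates JAK kinases and the transcription factor STAT3, which in turn induces the inhibitor SOCS3. Interleukin-1 alpha and beta bind the receptor encoded by IL1R1 together with the accessory chain encoded by IL1RAP, and signal through MYD88 and IRAK kinases to NF-kB, a transcription factor that induces IL6, LIF and VCAM1 among many genes. Fibroblasts of the lung are a known source of interleukin-6, interleukin-11 and LIF.

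The miRs libraries had more IL6 and IL1R1 and less LIF, CLCF1 and VCAM1 than the controls, while IL11 and IL6ST lay within the spread of the libraries. LIF was 3.08-fold and VCAM1 3.05-fold lower in mean FPKM in miRs, and IL1R1 was 1.90-fold higher. IL6 was 5.29-fold higher on average, but by very different amounts in the miRs libraries. IL1A, IL1B and IL33 were at or under 0.520 FPKM in every library. In limma, fitted over all tested genes, 0 of the 7 tested genes passed an adjusted p of 0.05, where 12 genes (0.101%) passed as higher and 17 (0.143%) as lower (0.245% in either direction). At an unadjusted p under 0.05 there were 2 higher and 3 lower among the 7, against 24.2% of all tested genes, 11.2% higher and 13.0% lower. In 5 of the 7 the groups did not overlap, 2 higher and 3 lower in miRs. Over all tested genes the groups did not overlap in 59.5%, with 29.5% higher and 30.0% lower, so the share among the 7 was near the background. An exact permutation test of 2 libraries against 2 cannot go below p = 0.333 and was not used for single genes. These are bulk samples, in which fewer cells expressing a gene and less RNA per cell cannot be told apart.

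**Figure D1:**
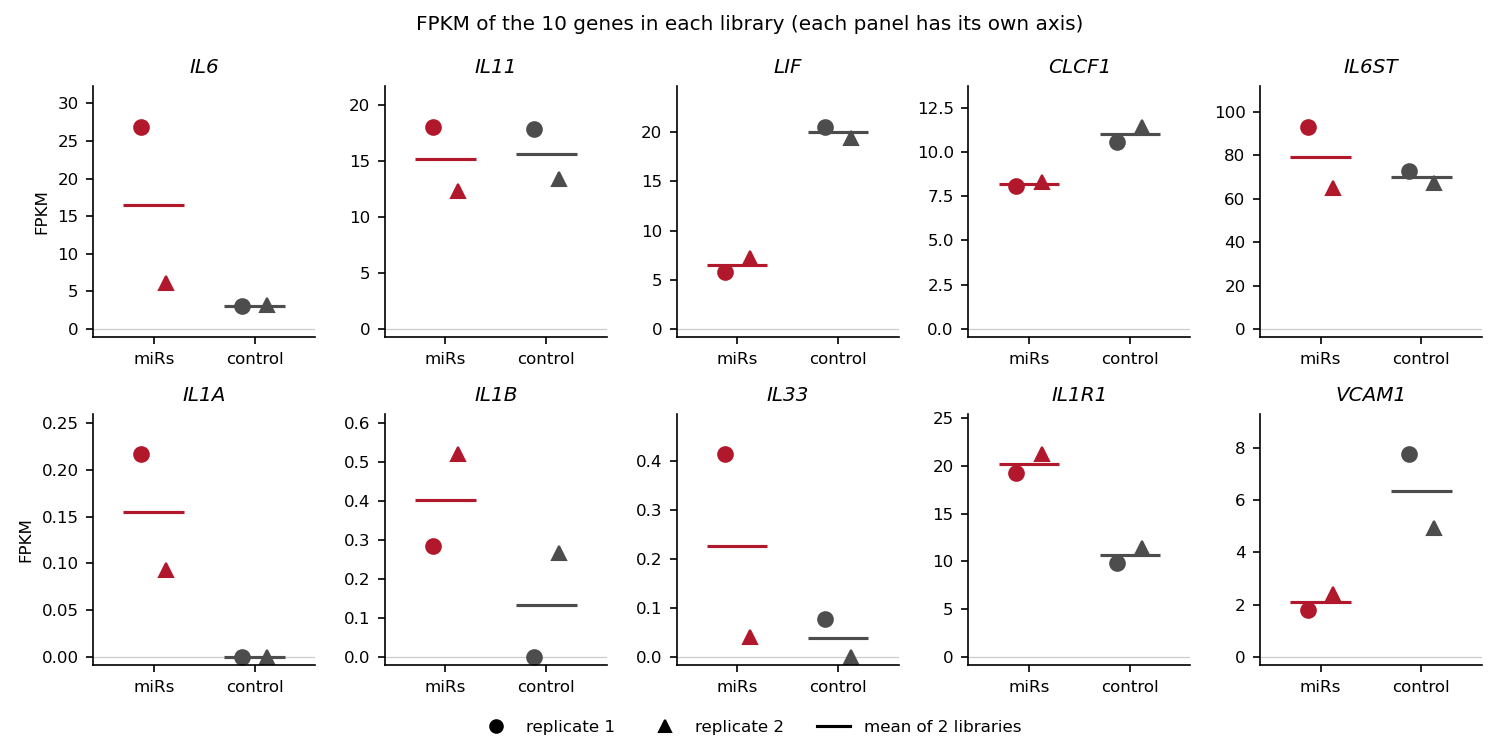
FPKM (vertical axis, linear, own scale in each panel) of the 10 genes in the miRs libraries (red, left) and the control libraries (grey, right), with circles for replicate 1, triangles for replicate 2 and a line at the mean. Both miRs points lie below both control points for LIF, CLCF1 and VCAM1 and above them for IL6, IL1R1, IL1A and IL1B. IL1A and IL1B are under the minimum for testing. The IL1B groups are parted only by 0.285 FPKM in miRs replicate 1 against 0.266 FPKM in control replicate 2. IL6 in miRs replicate 1 (26.9 FPKM) stands far above miRs replicate 2 (6.18 FPKM).

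The cell line carried the markers of its label. All 13 fibroblast markers reached a mean of 1 FPKM, and their summed level was 8464 to 13075 FPKM in miRs and 12242 to 13112 FPKM in control. Collagen genes made up much of that sum, and the single markers differed. None passed in limma, but 6 of the 13 were lower and 1 (S100A4) higher without overlap, each at an unadjusted p under 0.05. Among all tested genes, 30.0% were lower without overlap and 13.0% were lower at that p. The list's median log2 difference was −0.50, but the median differed between the miRs libraries, although the 6 markers lay below both controls in each. Taken singly against the control mean, replicate 1 of miRs gave a median of −0.68, replicate 2 only −0.01. DCN, a matrix proteoglycan, was at 352 and 419 FPKM in miRs and 963 and 1223 FPKM in control, and FAP, a fibroblast surface protease, was at 7.91 and 11.7 FPKM in miRs and 30.5 and 33.8 FPKM in control. DCN and FAP were lower in both miRs libraries, as were LIF, CLCF1 and VCAM1. Of 12 leukocyte markers 1 reached it (CD68, also a lysosomal gene), 5 were listed at 0 in every library, and PTPRC, the common leukocyte antigen, was listed at 0 or at most 0.0182 FPKM. Of 10 endothelial markers, which matter for VCAM1, TEK and ESAM reached it, whereas PECAM1 and CDH5 were listed at 0 in both controls and at most at 0.0188 FPKM in miRs. The summed endothelial level was 8.44 to 19.4 FPKM in miRs and 12.4 to 14.8 FPKM in control. Of 13 epithelial markers 5 reached it, and their summed level over all 13 was 199.6 to 267 FPKM in miRs and 29.9 to 32.1 FPKM in control. The keratins KRT18 and KRT19 passed as higher in miRs (adjusted p = 0.0354 for both in limma), while CDH1, the epithelial cadherin, was listed at 0 in both miRs libraries. Whether these markers bear on the cytokine genes was not tested. Libraries of the same group differed by more than 1 on the log2(FPKM + 1) scale at 725 tested genes in miRs and at 71 in control.

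Among the ligands, IL6 encodes interleukin-6, the inflammatory cytokine after which the family is named. Its level was 26.9 and 6.18 FPKM in miRs replicates 1 and 2, against 3.01 and 3.25 FPKM in control replicates 1 and 2. Both miRs libraries were above both controls, and the first lay 4.36-fold above the second, whereas the controls were almost equal. The first miRs library was 8.60-fold and the second 1.97-fold above the control mean. The group means were 16.5 ± 14.7 FPKM in miRs and 3.13 ± 0.169 FPKM in control (SD, n = 2 each). The log2 difference was 1.78 ± 0.66 (SE), with a 95% interval of 0.04 to 3.52 and an adjusted p of 0.202 in limma. All log2 differences are miRs minus control on the log2(FPKM + 1) scale, which understates the change of low genes. The 3 tested genes with a profile over the 4 libraries closest to that of IL6 were APOL2, an apolipoprotein L gene, PLA2G4A, a cytosolic phospholipase A2 that releases arachidonic acid, and HLA-F, a non-classical MHC class I gene. Their Euclidean distances from IL6, over centred log2(FPKM + 1) values, were 0.165, 0.197 and 0.212. In miRs replicates 1 and 2 and control replicates 1 and 2, APOL2 was at 68.6, 15.8, 8.17 and 10.2 FPKM. In the same order PLA2G4A was at 7.94, 1.11, 0.392 and 0.475 FPKM, and HLA-F at 5.19, 0.467, 0 and 0 FPKM. PLA2G4A and HLA-F reach the minimum mean of 1 FPKM only through miRs replicate 1, and adding 1 before the log shrinks their fold differences.

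LIF encodes leukemia inhibitory factor, which signals through gp130 paired with LIFR. It was at 5.76 and 7.23 FPKM in miRs replicates 1 and 2, and at 20.6 and 19.4 FPKM in control replicates 1 and 2. Every miRs value was below every control value by a wide margin, and replicates of each group lay close together. The means were 6.49 ± 1.04 FPKM in miRs and 20.0 ± 0.823 FPKM in control (SD, n = 2 each), a log2 difference of −1.49 ± 0.15 (SE, 95% interval −1.90 to −1.08). Its unadjusted p of 0.000320 in limma ranked 57 among the 11860 tested genes, and the adjusted p was 0.0632. CLCF1 encodes a cytokine that acts on the CNTF receptor complex. It was at 8.05 and 8.27 FPKM in miRs and at 10.6 and 11.4 FPKM in control, a smaller difference with no overlap (log2 difference −0.39 ± 0.13, adjusted p = 0.169 in limma).

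IL11 encodes interleukin-11, a cytokine of fibroblasts that acts through IL11RA and gp130. Its level was 18.1 and 12.3 FPKM in miRs and 17.9 and 13.4 FPKM in control. The groups overlapped fully, and the replicates of each group differed more than the group means of 15.2 ± 4.10 FPKM in miRs and 15.7 ± 3.15 FPKM in control (SD, n = 2 each). The log2 difference was −0.05 ± 0.25 (SE), with a 95% interval of −0.70 to 0.60.

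The makeup of these ligand transcripts therefore differed between the groups within each library, whatever the scaling of the library. IL6 made up 45.7% and 18.2% of the summed FPKM of IL6, IL11, LIF and CLCF1 in miRs replicates 1 and 2, and 5.78% and 6.84% in control replicates 1 and 2. LIF made up 9.79% and 21.3% of that sum in the miRs libraries and 39.5% and 40.9% in the controls. The ratio of IL6 to LIF was 4.67 and 0.855 in miRs, against 0.146 and 0.167 in control. Neither the share of IL6 nor that of LIF overlapped between the groups, and the share of IL11, 30.8% and 36.2% in miRs against 34.4% and 28.3% in control, did.

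The 3′ ends of the ligand transcripts carry sequences through which their decay is known to be regulated. AU-rich elements, built from the pentamer AUUUA, are bound by decay factors of the ZFP36 family, whose core site is UUAUUUAUU. In the longest 3′ untranslated region that GENCODE 29 gives for each gene, this nonamer occurred 6 times in IL11, 2 times each in LIF, CLCF1 and IL1B, and not in the other 6 genes. It occurred at least once in 9.31% and at least 2 times in 2.16% of the 10794 tested genes that have such a region. The first occurrence in each of these 4 genes is shown, 5′ to 3′, because it is the feature that ligands with different responses shared, with the nonamer in capitals.
IL11: aagccagaucUUAUUUAUUuauuuauuuca
LIF: cuccgggcccUUAUUUAUUauuuaaacauu
CLCF1: guauuaauauUUAUUUAUUuggagauguua
IL1B: gcuucccuauUUAUUUAUUuauuuguuugu
The IL6 region, of 429 bases, held 6 AUUUA pentamers, or 14.0 per kilobase, the highest density of the 10 genes, where the median tested gene had 1.69 per kilobase. LIF and CLCF1, lower in miRs, IL11, which overlapped, and IL1B, barely detected, thus all carried the nonamer. A match is a description of the sequence and not evidence that a factor bound it here.

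Genes that regulate cytokine mRNA decay were measured for the same reason. Of 13 tested, 0 passed in limma, 4 had an unadjusted p under 0.05 (3 higher and 1 lower in miRs), and 6 were higher and 3 lower without overlap. The list's median log2 difference was 0.14, against 0.00 over all tested genes. ZC3H12A, the endonuclease Regnase-1 that degrades IL6 mRNA, was at 6.72 and 7.24 FPKM in miRs and 2.68 and 3.12 FPKM in control (log2 difference 1.03, adjusted p = 0.0694 in limma). ZFP36L1, at 89.8 and 110 FPKM in miRs against 62.6 and 66.8 FPKM in control, and ZFP36L2, at 47.9 and 37.6 FPKM in miRs against 24.3 and 30.2 FPKM in control, are both decay factors of the ZFP36 family. DUSP1, a phosphatase that limits p38 signalling, was lower, at 30.8 and 31.9 FPKM in miRs and 68.8 and 52.2 FPKM in control.

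IL6ST, the shared chain, had the highest level of the 10 genes in every library. It was at 93.1 and 64.9 FPKM in miRs and at 72.7 and 67.1 FPKM in control, so that the controls lay between the miRs libraries. The log2 difference was 0.15 ± 0.21 (SE, 95% interval −0.40 to 0.71) with an adjusted p of 0.681 in limma. IL6ST has a processed pseudogene, which makes its level uncertain.

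The ligand-specific chains differed among themselves. IL6R, the receptor chain of interleukin-6, was at 3.05 and 9.50 FPKM in miRs and 2.16 and 2.54 FPKM in control, higher without overlap and uneven (adjusted p = 0.295 in limma). IL11RA was lower, at 4.71 and 7.32 FPKM in miRs and 10.5 and 10.9 FPKM in control (log2 difference −0.77, adjusted p = 0.140 in limma). LIFR, at 2.73 and 5.45 FPKM in miRs against 3.80 and 4.29 FPKM in control, and OSMR, the oncostatin M receptor, at 40.9 and 35.1 FPKM in miRs against 45.5 and 38.6 FPKM in control, overlapped. IL27RA was at 2.61 and 2.47 FPKM in miRs and 2.21 and 2.25 FPKM in control. Of the 5 tested chains of 7 listed, 0 passed in limma, 0 higher and 1 lower had an unadjusted p under 0.05, 2 were higher and 1 lower without overlap, and the median log2 difference was −0.04. IL6R, unlike IL6, was higher in miRs replicate 2 than in miRs replicate 1.

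Among the other ligands and partners of the family, 3 of 7 were tested, 0 passed in limma, 1 higher and 1 lower had an unadjusted p under 0.05, and OSM, IL27 and IL31 were listed at 0 in every library. CTF1, cardiotrophin-1, which like LIF acts through LIFR and gp130, was at 2.47 and 3.69 FPKM in miRs and 7.87 and 6.43 FPKM in control (log2 difference −1.01, adjusted p = 0.0962 in limma). EBI3, a subunit of interleukin-27, was at 1.66 and 3.79 FPKM in miRs against 0.790 and 0.646 FPKM in control (adjusted p = 0.159 in limma). LIF, CLCF1 and CTF1 were thus the ligands with no overlap and a lower level in miRs, and IL6 and EBI3 those with a higher one. EBI3 was under 1 FPKM in both controls and reached the minimum mean only through the miRs libraries. A higher mean in miRs was therefore a condition of its being tested.

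**Figure D2:**
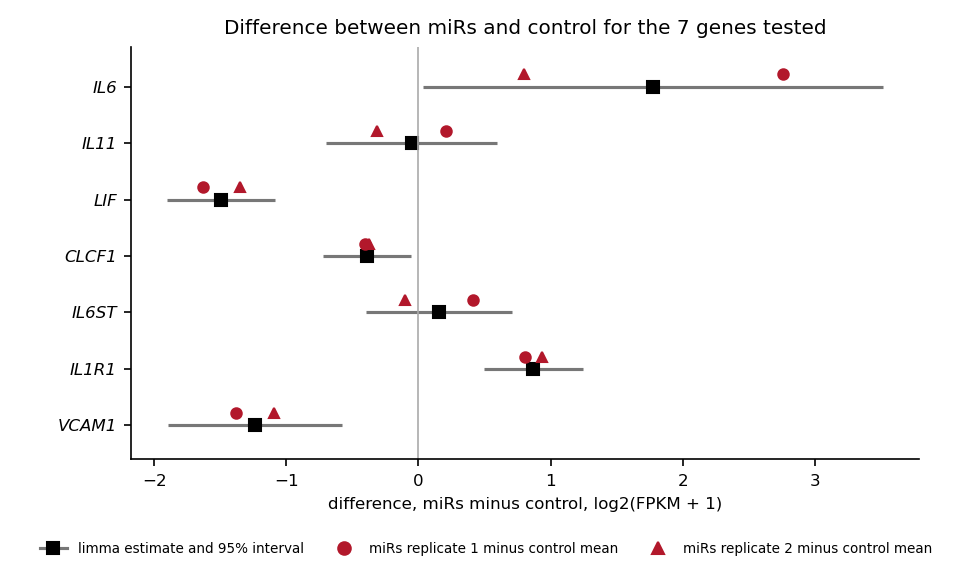
Difference between miRs and control on the log2(FPKM + 1) scale (horizontal axis) for the 7 genes tested, with squares for the limma estimate, bars for its 95% interval and red symbols for each miRs library minus the control mean. LIF (−1.49), VCAM1 (−1.24) and IL1R1 (0.87) have both miRs libraries close together, while those of IL6 lie at 2.76 and 0.80.

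Below gp130, 16 listed genes were all tested. In limma 0 passed, 4 higher and 3 lower had an unadjusted p under 0.05, 5 were higher and 5 lower without overlap, and the median log2 difference was −0.01. SOCS1, an inhibitor of JAK kinases, was at 22.0 and 33.2 FPKM in miRs against 7.86 and 11.6 FPKM in control, and PTPN2, a phosphatase that acts on JAK and STAT proteins, at 14.7 and 14.2 FPKM in miRs against 7.23 and 8.67 FPKM in control. JAK1, the kinase bound to gp130, was lower, at 30.6 and 31.2 FPKM in miRs and 47.3 and 45.5 FPKM in control (log2 difference −0.57, adjusted p = 0.0954 in limma). STAT3 was at 38.0 and 41.0 FPKM in miRs and 32.8 and 32.3 FPKM in control. SOCS3, the inhibitor that STAT3 induces, was at 17.1 and 25.2 FPKM in miRs and 19.95 and 20.3 FPKM in control, with the controls between the miRs libraries.

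Genes commonly induced through STAT3 showed no shared direction. Of 17 listed 13 were tested, 0 passed in limma, 1 higher and 1 lower had an unadjusted p under 0.05, 3 were higher and 3 lower without overlap, and the median log2 difference was 0.03. JUNB, an AP-1 subunit, was at 17.2 and 15.7 FPKM in miRs against 23.4 and 23.2 FPKM in control, and MYC at 42.3 and 27.2 FPKM in miRs against 19.4 and 19.7 FPKM in control. IL4R, the interleukin-4 receptor chain, was at 28.6 and 20.2 FPKM in miRs against 16.5 and 17.2 FPKM in control. TIMP1, a metalloproteinase inhibitor, was at 1088 and 681 FPKM in miRs against 1802 and 1199 FPKM in control.

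Of the interleukin-1 ligands, IL1A was at 0.217 and 0.0927 FPKM in miRs and listed at 0 in both controls. IL1B, which encodes the secreted form cleaved by caspase-1, was at 0.285 and 0.520 FPKM in miRs and at 0 and 0.266 FPKM in control. IL33, a nuclear cytokine released from damaged cells, was at 0.413 and 0.0396 FPKM in miRs and at 0.0772 and 0 FPKM in control. These 3 genes were under the minimum for testing, and the values of IL33 overlapped between the groups. The antagonist IL1RN and the decoy receptor IL1R2 were listed at 0 in all 4 libraries. Of the 9 other ligands, antagonists and binding proteins of the family, 1 was tested: IL18BP, the interleukin-18 binding protein, at 7.07 and 3.81 FPKM in miRs and 1.31 and 1.94 FPKM in control (log2 difference 1.26, adjusted p = 0.114 in limma).

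IL1R1, the signalling receptor of interleukin-1, was at 19.3 and 21.2 FPKM in miRs and at 9.87 and 11.4 FPKM in control. Both miRs libraries lay above both controls, and unlike IL6 they were close to each other. The means were 20.3 ± 1.37 FPKM in miRs and 10.6 ± 1.09 FPKM in control (SD, n = 2 each), a log2 difference of 0.87 ± 0.14 (SE, 95% interval 0.50 to 1.24, adjusted p = 0.0809 in limma). IL1RAP, its accessory chain, was also higher, at 11.1 and 7.003 FPKM in miRs and 3.03 and 2.96 FPKM in control (log2 difference 1.30, adjusted p = 0.0863 in limma). SIGIRR, an inhibitory member of the receptor family, was lower, at 3.85 and 5.22 FPKM in miRs against 6.97 and 5.95 FPKM in control. These were the 2 tested genes of the 8 other receptors listed; 0 passed in limma, and IL1RAP had an unadjusted p under 0.05.

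IL1R1 lies on chromosome 2 in a row of related receptor genes, which RefSeq orders as IL1R2, IL1R1, IL1RL2, IL1RL1, IL18R1 and IL18RAP. The row was looked at after its values were seen. IL1RL2, a receptor of interleukin-36, was at 0.251 and 0.0957 FPKM in miRs and 0.0466 and 0.0490 FPKM in control. IL1RL1, the receptor of interleukin-33, was at 0.443 and 0.136 FPKM in miRs and 0.0447 and 0.0512 FPKM in control. IL18R1, a receptor chain of interleukin-18, was at 0.491 and 0.195 FPKM in miRs and 0.0754 and 0.0792 FPKM in control. Of the 6 genes 4, IL1R1 among them, were higher in both miRs libraries. Only IL1R1 of this row reached the minimum for testing. The share of tested genes that were higher without overlap (29.5%) is therefore no background for the row. Whether the row differed as a whole was not tested. The 2 at the ends of the row, IL1R2 and IL18RAP, were listed at 0 in all 4 libraries. The control values of IL1RL2 and of IL18R1 stood in a ratio of 1.05 between control replicates 2 and 1, which is the ratio that equal numbers of fragments give, so these levels rest on few fragments.

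Below the interleukin-1 receptor, 15 of 16 listed adaptors and kinases were tested. In limma 0 passed, 2 higher and 2 lower had an unadjusted p under 0.05, 6 were higher and 3 lower without overlap, and the median log2 difference was 0.03. MYD88, the adaptor shared with Toll-like receptors, was at 104 and 39.1 FPKM in miRs and 21.1 and 22.7 FPKM in control, uneven between the miRs libraries as IL6 was (adjusted p = 0.160 in limma). IRAK1, a kinase recruited by MYD88, was at 55.8 and 58.4 FPKM in miRs against 44.8 and 39.5 FPKM in control. IKBKG, the regulatory subunit of the kinase that activates NF-kB, was lower, at 18.8 and 22.3 FPKM in miRs against 34.3 and 36.1 FPKM in control (log2 difference −0.75, adjusted p = 0.0891 in limma), as was TOLLIP, an inhibitor of the pathway, at 12.7 and 13.4 FPKM in miRs against 16.3 and 16.8 FPKM in control. IKBKG has a pseudogene copy, so its level is uncertain.

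Of 12 inflammasome genes, whose products cleave and release interleukin-1 beta, 7 were tested and 0 passed in limma, with 3 higher and 1 lower at an unadjusted p under 0.05, 4 higher and 2 lower without overlap and a median log2 difference of 0.56. CASP1, the protease itself, was at 55.2 and 28.7 FPKM in miRs and 11.4 and 16.0 FPKM in control (log2 difference 1.49, adjusted p = 0.112 in limma). CARD16, a near copy of the first part of CASP1, was at 49.6 and 51.0 FPKM in miRs against 22.7 and 34.1 FPKM in control, and how fragments were split between the 2 genes is uncertain. PYCARD, the adaptor, was at 9.47 and 8.83 FPKM in miRs against 6.38 and 6.32 FPKM in control. NLRP1, a sensor, was lower, at 6.59 and 5.79 FPKM in miRs and 10.6 and 12.1 FPKM in control (log2 difference −0.78, adjusted p = 0.0880 in limma).

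**Figure D3:**
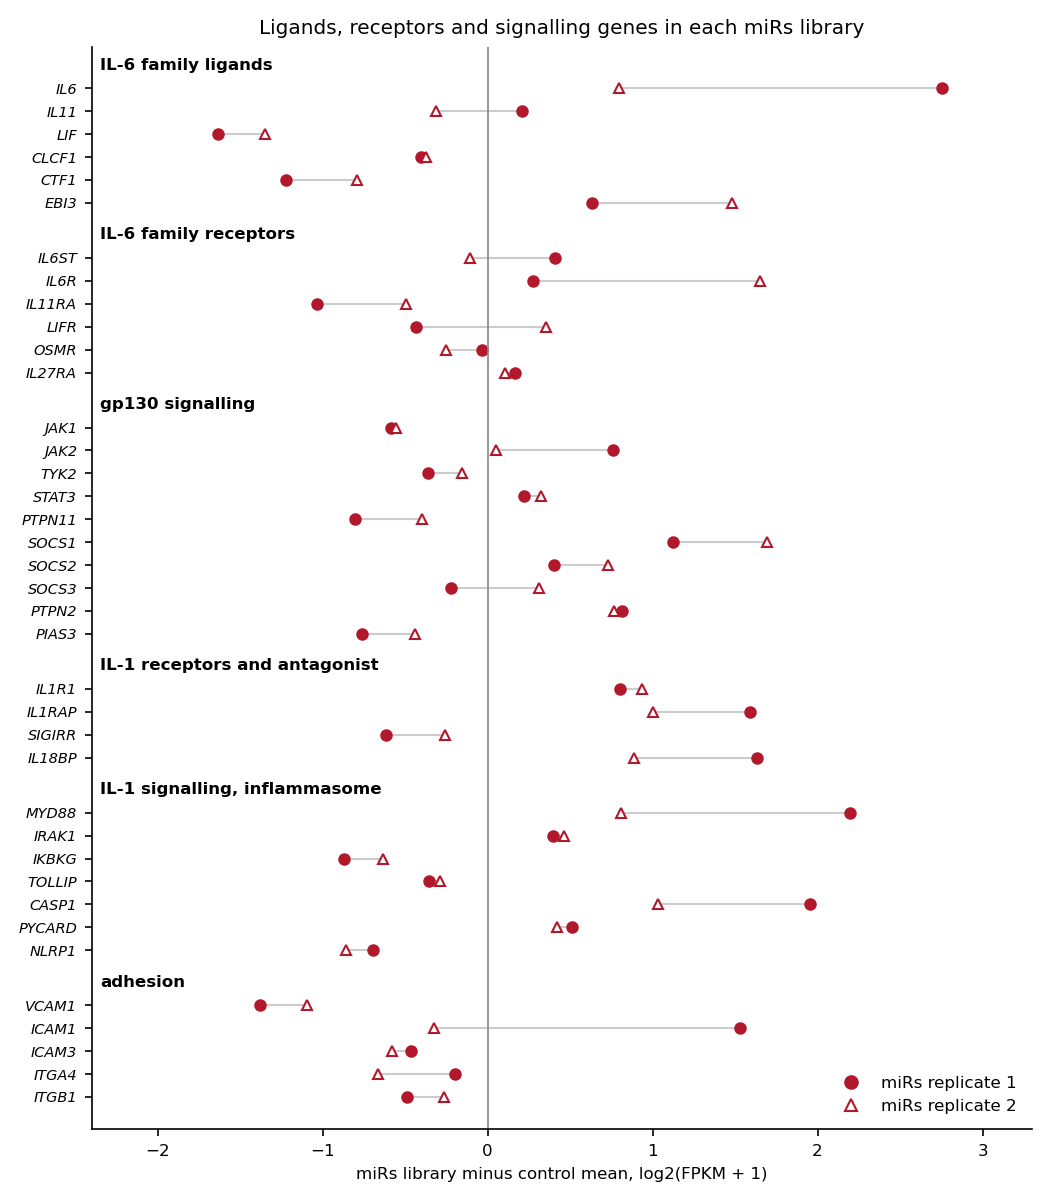
Each miRs library minus the control mean on the log2(FPKM + 1) scale (horizontal axis; filled circles for miRs replicate 1, open triangles for miRs replicate 2) for tested genes of both cytokine families, grouped by role. LIF, CTF1, IL11RA and JAK1 lie left of 0 in both libraries, IL1R1, IL1RAP and CASP1 lie right of it, and IL6, MYD88 and ICAM1 lie farther right in miRs replicate 1 than in miRs replicate 2.

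VCAM1 encodes an adhesion molecule that holds leukocytes through the integrin of ITGA4 and ITGB1 and is induced by cytokines in endothelium and in fibroblasts. Its level was 1.77 and 2.38 FPKM in miRs and 7.74 and 4.94 FPKM in control. Both miRs values were below both control values, and the gap between the groups was about as wide as the spread of the controls. The means were 2.08 ± 0.432 FPKM in miRs and 6.34 ± 1.98 FPKM in control (SD, n = 2 each), a log2 difference of −1.24 ± 0.25 (SE, 95% interval −1.89 to −0.58, adjusted p = 0.0936 in limma). Of the endothelial markers, PECAM1, CDH5 and EMCN were at or near 0 in every library. TEK, an angiopoietin receptor, was at 13.7 and 5.51 FPKM in miRs and 13.5 and 10.97 FPKM in control, with overlap. ESAM, a junction adhesion molecule, was opposite to VCAM1, at 3.68 and 1.62 FPKM in miRs and 0.296 and 0.310 FPKM in control (log2 difference 1.42, adjusted p = 0.107 in limma). It reached the minimum mean only through the miRs libraries, so a higher mean there was a condition of its being tested. TIE1 and ROBO4 were also higher without overlap, at low levels. The part of these markers, and of the lower fibroblast markers, in the level of VCAM1 was not tested.

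ICAM1, an adhesion molecule induced through NF-kB like VCAM1, did not follow it. It was at 30.05 and 7.59 FPKM in miRs and 8.96 and 10.7 FPKM in control, so that miRs replicate 1 lay above and miRs replicate 2 below both controls. ITGB1 was at 764 and 891 FPKM in miRs against 1159 and 991 FPKM in control, and ITGA4 at 6.07 and 4.12 FPKM in miRs against 7.997 and 6.31 FPKM in control, both lower without overlap. ICAM3 was at 3.56 and 3.20 FPKM in miRs against 5.62 and 4.97 FPKM in control, and ALCAM overlapped, at 109 and 72.9 FPKM in miRs against 110 and 104 FPKM in control. Of 11 listed adhesion genes 5 were tested, 0 passed in limma, 0 higher and 1 lower had an unadjusted p under 0.05, 0 were higher and 3 lower without overlap, and the median log2 difference was −0.38.

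IL6 and VCAM1 differed in opposite directions, and their promoters are shown because both hold an NF-kB motif close to the start site. The RefSeq table (GRCh38.p14, a later build than the hg19 of the deposited values) matched 8 of the 10 genes, and LIF and CLCF1 were not matched. The windows run from 250 bases before the start to 50 after it, 5′ to 3′ on the gene's strand, with motif matches in capitals.
IL6, chr7:22726950-22727249, strand +: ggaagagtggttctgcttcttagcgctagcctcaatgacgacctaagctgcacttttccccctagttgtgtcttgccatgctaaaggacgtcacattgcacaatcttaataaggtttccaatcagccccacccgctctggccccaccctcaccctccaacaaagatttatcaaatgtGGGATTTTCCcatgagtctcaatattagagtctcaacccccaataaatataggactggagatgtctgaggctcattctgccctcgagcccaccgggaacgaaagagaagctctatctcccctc
VCAM1, chr1:100719492-100719791, strand +: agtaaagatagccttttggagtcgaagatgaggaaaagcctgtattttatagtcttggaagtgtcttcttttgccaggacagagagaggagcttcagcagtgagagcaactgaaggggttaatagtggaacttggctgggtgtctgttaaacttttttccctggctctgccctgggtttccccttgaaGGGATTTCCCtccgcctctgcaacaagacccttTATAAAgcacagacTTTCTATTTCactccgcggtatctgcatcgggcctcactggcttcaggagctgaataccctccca
The motifs searched were the NF-kB motif (kB), the AP-1 motif TGANTCA, the cAMP element TGACGTCA, the interferon-stimulated response element (ISRE) and the STAT motif TTCNNNGAA, on both strands, and TATAAA on the gene's strand. Of the 8 genes, IL6 and VCAM1 had the NF-kB motif, which 5.68% of 35116 windows held. In IL6 the match GGGATTTTCC began 73 bases before the start, and in VCAM1 the match GGGATTTCCC began 62 bases before it. VCAM1 also had a TATAAA, 29 bases before the start (7.33% of windows), and on the opposite strand an ISRE match, TTTCTATTTC as read on the gene's strand, beginning 15 bases before it (3.57% of windows). IL6 had neither.

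IL11 had a TGANTCA match 96 bases before its start, a motif held by 7.71% of windows, and both overlapping windows of IL1A had a pair of such matches, with a TATAAA in 1 of them. IL1B, 1 of 2 windows of IL33 and 1 of 4 windows of IL1R1 had a TTCNNNGAA match, held by 7.66% of windows. IL6ST had no match, and TGACGTCA, held by 1.85% of windows, was in none of the windows of the 8 genes. The NF-kB motif was present in both IL6, higher in miRs, and VCAM1, lower in miRs. As with the nonamer, a match describes the sequence and is not evidence of binding. Whether NF-kB had a part in either level was not tested.

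Genes induced through NF-kB mostly stood higher in miRs replicate 1 than in miRs replicate 2, as IL6 did. IL6 lay above both controls in each miRs library, which most of these genes did not. Of 14 tested genes commonly induced by interleukin-1 through NF-kB (22 listed), 13 were higher in miRs replicate 1 than in miRs replicate 2, against 6055 of all 11860 tested genes. The minimum mean of 1 FPKM includes miRs replicate 1, and 12 of the 14 reach it without that library. CXCL8 and BIRC3 reach it only through miRs replicate 1, so their higher level there was a condition of being tested. In 9 of the 14 the miRs libraries lay on opposite sides of the control mean, as did 3383 of all tested genes. Set against the control mean, the list had a median log2 difference of 1.15 for miRs replicate 1 and of −0.32 for miRs replicate 2. TNFAIP3, an inhibitor that NF-kB induces, was at 31.1 and 3.21 FPKM in miRs and 2.71 and 2.55 FPKM in control. CXCL8, the chemokine interleukin-8 (picked with its values known), stood at 5.11 and 0.112 FPKM in miRs and 0.546 and 0.918 FPKM in control.

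In limma 0 of the 14 passed, with 2 higher and 1 lower at an unadjusted p under 0.05 and 3 higher and 1 lower without overlap. PTGS2, the inducible cyclooxygenase, was at 5.26 and 4.05 FPKM in miRs against 0.325 and 0.161 FPKM in control (adjusted p = 0.0605 in limma). It reached the minimum mean only through the miRs libraries, so a higher mean there was a condition of its being tested. MMP1, a collagenase, was at 177 and 98.7 FPKM in miRs against 72.0 and 58.4 FPKM in control. The chemokine CCL2 was lower, like LIF and VCAM1, at 11.5 and 6.03 FPKM in miRs and 95.4 and 42.2 FPKM in control (log2 difference −2.78, adjusted p = 0.0863 in limma). The 30 interferon-stimulated genes measured as context were all higher in miRs replicate 1 than in miRs replicate 2, with medians of 6.24 and 3.64 over the control mean and a summed level of 13215 and 2578 FPKM, against 167 and 203 FPKM in control. None of these 30 passed in limma, and all 30 had an unadjusted p under 0.05. Those with a control mean under 1 FPKM, OAS1 among them, reached the minimum only through the miRs libraries. IL6 moved with both lists between the miRs libraries, and their part in its level was not tested. LIF, CLCF1, IL1R1 and VCAM1 differed little between the miRs libraries, by −0.28, −0.03, −0.13 and −0.29 (miRs replicate 1 minus miRs replicate 2, log2 scale), against 1.96 for IL6. IL11 and IL6ST differed by 0.52 and 0.51, in the same direction as IL6.

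**Figure D4:**
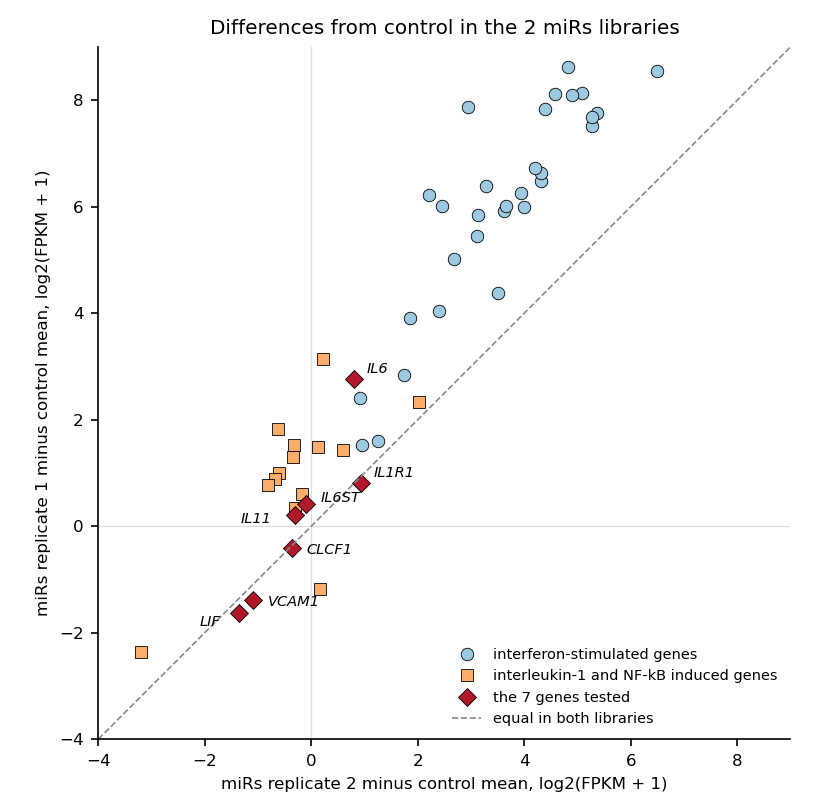
Difference from the control mean on the log2(FPKM + 1) scale in miRs replicate 1 (vertical axis) and miRs replicate 2 (horizontal axis) for the 7 genes tested (red diamonds), 14 genes induced by interleukin-1 and NF-kB (orange squares) and 30 interferon-stimulated genes (blue circles), with a dashed line where both libraries are equal. IL6 lies above the line with the interferon-stimulated genes and 13 of the 14 NF-kB genes, while LIF, VCAM1, CLCF1 and IL1R1 lie close to the line. IL11 and IL6ST lie above it by less than IL6.

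The order of levels differed between the groups. In miRs the means ran from IL6ST (79.0 FPKM) through IL1R1 (20.3), IL6 (16.5), IL11 (15.2), CLCF1 (8.16), LIF (6.49) and VCAM1 (2.08) to IL1B, IL33 and IL1A. In control they ran from IL6ST (69.9 FPKM) through LIF (20.0), IL11 (15.7), CLCF1 (10.998), IL1R1 (10.6), VCAM1 (6.34) and IL6 (3.13) to the same 3 genes. In the miRs libraries IL6 overlapped with IL1R1, IL11, CLCF1 and LIF, and its place above CLCF1 and LIF rests on miRs replicate 1, since in miRs replicate 2 it lay below both. CLCF1 overlapped with IL1R1 in the controls. The order of these genes is not resolved. LIF lay above IL11 in both controls and below CLCF1 in both miRs libraries.

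The size of the differences depended on which libraries were used. Without miRs replicate 1 the log2 difference was 0.80 for IL6, −1.35 for LIF, 0.94 for IL1R1, −1.09 for VCAM1 and −0.10 for IL6ST. Without miRs replicate 2 it was 2.76, −1.63, 0.80, −1.38 and 0.41 in the same order. A fit that leaves 1 library in a group assumes that it varies like the libraries of the other group. Calls of the 7 genes from such fits are therefore not given.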

How the data were processed

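RNA of MRC5 fibroblasts was measured in 2 miRs and 2 control libraries, grouped by the treatment label. Per the labels' protocols, total RNA was extracted and made into libraries with a stranded mRNA kit. Listed without roles in the submitters' processing notes are Cuffdiff 2.2.1, TopHat2 2.1.1, SAMtools 0.1.18, Bowtie2 2.2.8 and the hg19 build. The annotation, strand setting and library scaling were not given in the sources used. Each deposited file holds FPKM by gene symbol, per the file headers. FPKM is not a count, and the read depth is unknown. From steps between low values, 1 fragment was worth 0.899, 1.03 and 1.05 times as much FPKM in miRs replicate 1, miRs replicate 2 and control replicate 2 as in control replicate 1.

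Genes whose mean reached 1 FPKM were tested over the whole table with limma 3.58.1 (R 4.3.3) on log2(FPKM + 1), with a variance trend, 2-sided, with Benjamini-Hochberg adjustment at 0.05. The code was tested on simulated data. The 10 genes and the 17 other gene lists (chosen by role, with 4 of cell type markers) were chosen with earlier results of these data known. Up to 4 genes with the smallest p are named per list, with fixed receptors, adaptors and inhibitors; some genes that this rule names are not reported here. Alternatives were another pseudocount, minimum, scaling, variance trend, a replicate block and each library left out.

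Promoters came from RefSeq (GRCh38.p14) and 3′ untranslated regions of at least 30 bases from GENCODE 29, present for 91% of tested genes, matched by symbol in Python 3.11.15. These builds differ from hg19, so no coordinates of the deposited values are given.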

Additional observations from a re-analysis of the deposited data

How the results depend on the processing

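Of all tested genes 29 passed in limma. The count was 0 with no minimum FPKM (3338 at an unadjusted p under 0.05), 6 with quantile normalization and 99 with the replicate block, and between 0 and 3906 with 1 library left out (2191 without miRs replicate 1, 3906 without miRs replicate 2). Among the 7 tested cytokine genes it was 0 under each of these settings with all 4 libraries. The replicate numbers pair nothing in the labels, and same-numbered libraries deviated together with a correlation of 0.201 over genes, so the replicate block served as an alternative.

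LIF, CLCF1, IL6, IL1R1 and VCAM1 kept their direction under every alternative that could be fitted (VCAM1 is under a minimum mean of 5 FPKM), with log2 differences from −1.63 to −1.35 for LIF, −0.44 to −0.34 for CLCF1, 0.80 to 2.76 for IL6, 0.77 to 0.97 for IL1R1 and −1.55 to −0.96 for VCAM1. Because their groups do not overlap, leaving out a library or changing the pseudocount could not reverse them. The minimum, variance trend and replicate block left the estimates unchanged, so only the other scalings could have changed a direction. With 1 library left out, IL11 ranged from −0.31 to 0.21 and IL6ST from −0.10 to 0.41. The median over all tested genes moved by less than 0.1 under each setting. Of 143 recomputed list medians, 16 moved by more than the spread between the miRs libraries (1 SD) and 17 changed sign, in 7 of 13 lists. IL1A, IL1B and IL33 were under 1 FPKM and were not tested, and the read depth behind their values is unknown.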

Other observations

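Cytokines outside these families were mixed in direction. Of 24 listed, 13 were tested and 0 passed in limma, with 2 higher and 1 lower at an unadjusted p under 0.05, 5 higher and 3 lower without overlap, and a median log2 difference of 0.30. TSLP, an alarmin of epithelium and fibroblasts, was at 1.42 and 1.45 FPKM in miRs and 6.46 and 3.68 FPKM in control (log2 difference −1.28, adjusted p = 0.0954 in limma), lower as LIF was. KITLG, the ligand of the KIT receptor, was at 14.4 and 17.9 FPKM in miRs and 10.8 and 10.2 FPKM in control. TNFSF10, which encodes the death ligand TRAIL, was at 20.3 and 1.51 FPKM in miRs and 0.0481 and 0.0538 FPKM in control. TNFSF13B, which encodes the B-cell factor BAFF, was at 12.5 and 1.19 FPKM in miRs and 0.0665 and 0.107 FPKM in control. Like IL6, TNFSF10 and TNFSF13B were higher in miRs replicate 1 than in miRs replicate 2. Both reach the minimum mean of 1 FPKM only through miRs replicate 1, so for them this was a condition of being tested. Without that library 9 of the 13 tested cytokines reach the minimum, and the list's median log2 difference was −0.36.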
